A study of Egretta garzetta and Nycticorax nycticorax with 12 samples.

Results

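The transcriptome of the olfactory epithelium (OE) was compared between adult and nestling black-crowned night herons (*N. nycticorax*) over all annotated genes. The members are the 6 night herons among the 12 birds of the series, taken by their species and stage labels, with adults 4, 5 and 6 against nestlings 1, 2 and 3. The adults were longer than 40 cm, with green-black plumage and developed olfactory bulbs, and the nestlings were shorter than 15 cm, with mottled brown feathers and undeveloped bulbs. Each nestling came from another nest, and the adults were caught at another location than the nestlings, so stage and location cannot be told apart in these birds. No bird carried a treatment or an engineered allele.

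Levels are given as TPM, transcripts per 1000000, which are corrected for gene length and sum to 1000000 in each bird. Values were available for 13361 genes in each of the 6 birds. The 61 olfactory receptor (OR) genes listed by the study entered the fit and are otherwise left out of the description, which leaves 13300 genes. Only 261 identifiers were paired with a gene symbol, in a table that the study drew up for genes of vision and eye development. The genes given by symbol below are therefore drawn from that table, whether or not they are expressed in the OE. Most of the other genes can be described only by level, position, coding length and exons.

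The OE is a layered epithelium in which olfactory sensory neurons, whose cilia carry the receptors for odorants, stand between supporting (sustentacular) cells above a layer of basal cells that renews them. Glands, vessels and connective tissue lie beneath and are usually taken along in a dissected sample. Wnt, BMP, TGF-beta and receptor tyrosine kinase signalling take part in the growth and upkeep of such epithelia and of the connective tissue under them. In bulk RNA, fewer cells of a type and less RNA per cell cannot be told apart.

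The tissue label could be checked only in part, because the classical markers of the olfactory neuron are not paired with identifiers here. Of the 61 OR genes, 11, 13 and 27 were above 0 TPM in adults 4, 5 and 6, against 8, 53 and 60 in nestlings 1, 2 and 3. The study listed these genes because it detected them in these same birds. It found all of them in nestlings and only a part in adults. The counts are therefore no independent check of the tissue, and the choice of genes favours the nestlings. SOX2, a transcription factor of sustentacular and basal cells, stood at 203, 225 and 182 TPM in the adults, against 221, 65.1 and 114 TPM in the nestlings. Every bird thus held transcripts of some of the listed OR genes and of SOX2. Defining genes of the photoreceptor were near 0, with RH1 (rhodopsin) at no more than 0.79 TPM in any bird and GNAT1 (rod transducin) at no more than 0.13 TPM. The lens crystallin CRYAA stood at 8.74 TPM in nestling 2 and at no more than 0.87 TPM in the other birds.

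One library, nestling 2, stood apart from the other 5. Between 10531000 and 13169600 read equivalents (coverage times coding length over the read length of 150 bp) lay on the genes of each bird, with the highest number in nestling 2. Its median level over all genes was 7.58 TPM, against 18.6 to 24.3 TPM in the other 5 birds, and its 100 most abundant genes held 44.8% of all TPM, against 28.3% to 37.6%. Coverage in nestling 2 was heaped towards the end of the transcripts. Among genes with at least 5 exons, the median log2 ratio of last-exon to first-exon coverage was 0.317, 0.226 and 0.325 in adults 4, 5 and 6, against 0.474, 1.69 and 0.560 in nestlings 1, 2 and 3. Every adult lay under every nestling on this ratio, with an exact permutation p of 0.1 (two-sided, n = 3 each), which is the smallest that 3 birds against 3 can give. Its part in the stage differences was not tested. The medians of the gene lists and many of the single differences are therefore given with and without nestling 2. All other values and counts include nestling 2 unless stated.

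**Figure D1:**
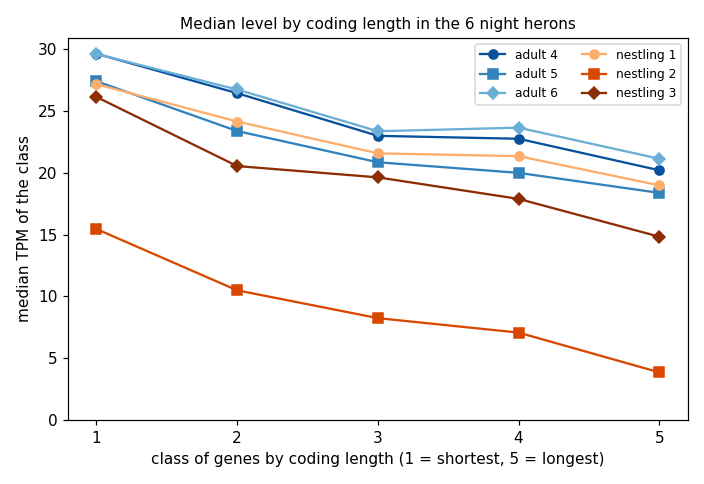
Median TPM (y axis) of the genes in each of 5 classes of coding length (x axis, shortest to longest) in adults 4 to 6 (blue) and nestlings 1 to 3 (orange and brown). The 3 adults and nestlings 1 and 3 go down from 26.1 to 29.6 TPM in the shortest class to 14.8 to 21.1 TPM in the longest, whereas nestling 2 goes down from 15.5 to 3.85 TPM.

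Levels in nestling 2 dropped with coding length more steeply than in any other bird. Its median was 15.5 TPM in the class of the shortest genes and 3.85 TPM in the longest. The longest class had medians of 20.2, 18.4 and 21.1 TPM in adults 4, 5 and 6, against 19.0 and 14.8 TPM in nestlings 1 and 3. Nestling 1, in contrast, was the nestling closest to the adults. Its Spearman correlation over genes was 0.934 to 0.950 with the adults, against 0.844 and 0.904 with the other nestlings. Among themselves the adults correlated at 0.959 to 0.977. Over the 11601 genes that reached 1 TPM in the mean of the 6 birds, the median SD of a gene on the log2 scale was 0.27 over the adults and 0.87 over the nestlings (n = 3 each). On rescaled TPM it was 0.26 over the adults and 0.75 over the nestlings, and 0.36 over nestlings 1 and 3 alone.

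No gene passed the test for a stage difference. With limma on log2(TPM + 0.1), 0 of 13042 genes tested had an adjusted p under 0.05 (0%), 785 (6.02%) had an unadjusted p under 0.05 with adults higher and 139 (1.07%) with adults lower. limma's voom on the read equivalents also called 0 genes, with 794 and 234 at an unadjusted p under 0.05. The lowest adjusted p was 0.104. The median log2 difference, adult minus nestling, was 0.45 over all genes tested, and it was 0.03 after each bird's TPM were rescaled by the median ratio of its genes to their mean over birds. Most of the general shift towards the adults on TPM went with nestling 2, since the median on TPM was 0.12 without that bird. After rescaling, the median without nestling 2 was -0.00064. Rescaling sets the median near 0 whichever birds are kept, so this last value does not bear on nestling 2.

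The number of genes that separated the stages bird by bird depended on this scale. On TPM, 2071 genes (15.9%) were higher in each adult than in each nestling and 504 (3.86%) were lower. On rescaled TPM, the numbers were 1269 (9.73%) and 1354 (10.4%). On both scales at once, 1211 genes (9.29%) were higher in all 3 adults and 488 (3.74%) were lower. These last shares are the background against which the lists below are read. Leaving out a bird moved the counts at an unadjusted p under 0.05 to 344, 409 and 424 with adults higher and to 72, 76 and 71 with adults lower without adults 4, 5 and 6, and to 2241, 1049 and 975 with adults higher and 388, 292 and 169 with adults lower without nestlings 1, 2 and 3.

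**Figure D2:**
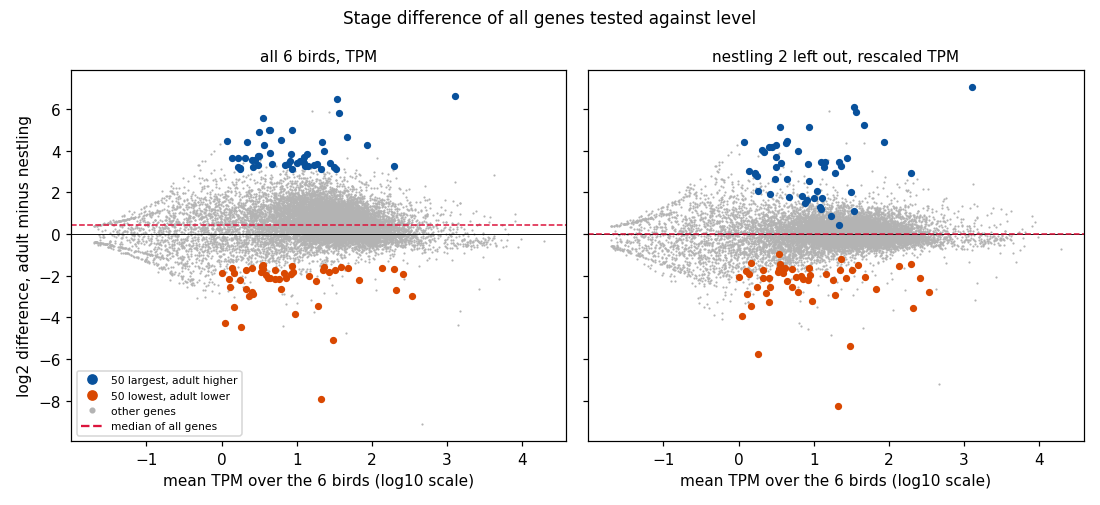
Log2 difference, adult minus nestling (y axis), against the mean TPM over the 6 birds (x axis, log10 scale) for the 13042 genes tested, on TPM of all birds (left) and on rescaled TPM without nestling 2 (right). The 50 genes with the largest differences (blue) and the 50 with the lowest (orange) among genes whose stages did not overlap are marked, and the dashed line is the median of all genes, at 0.45 on the left and -0.00064 on the right.

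Genes that were higher in every adult were longer than those that were lower. Outside the OR table and from a mean of 1 TPM upwards, 1135 genes were higher in each adult on both scales, with a median coding length of 1356 bp, and 449 were lower, with a median of 645 bp, against 1047 bp over all 11597 such genes. With the genes divided into 5 classes of coding length, the share higher in every adult was 6.63% in the shortest class and 15.3% in the longest. The share lower in every adult was 7.35% in the shortest and 0.777% in the longest. The median log2 difference was 0.16 in the shortest class and 0.85 in the longest on TPM, and -0.09 and 0.09 on rescaled TPM without nestling 2. Nestling 2 was the lowest of all 6 birds in 1054 of the 1135 genes (92.9%), and in 7120 of all 11597.

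The shares also differed by level. Of the 1632 genes at 100 TPM or more in the mean, 97 were higher and 164 were lower in every adult (5.94% and 10.05%). Of the 7261 genes between 10 and 100 TPM, 778 were higher and 200 were lower (10.7% and 2.75%). The class of the most abundant genes was thus the one with more genes lower than higher in adults. Differences of at least 1 on the log2 scale were held by 999 of the 1135 genes higher in adults over all 6 birds and by 287 of them on rescaled TPM without nestling 2. For the 449 genes lower in adults these numbers were 113 and 121. Nestling 2 was the highest of all birds in 242 of these 449 genes.

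Among the genes higher in every adult, NheS0471g031 had the largest difference. NheS0471g031, a gene model of a single exon with 582 bp of coding sequence at 408635 to 409216 of scaffold 471, stood at 1409, 4456 and 1777 TPM in adults 4, 5 and 6, against 11.7, 49.2 and 19.8 TPM in nestlings 1, 2 and 3. Each adult was more than an order of magnitude above each nestling. The log2 difference was 6.62 ± 0.61 (SE), with an adjusted p of 0.104 by limma, and 7.06 on rescaled TPM without nestling 2. Its identifier is paired with no symbol. The gene after it, 1138 bp away and also of a single exon (591 bp), had 62.7, 351 and 89.4 TPM in the adults, against 4.31, 9.24 and 6.64 TPM in the nestlings. The gene before it, 3267 bp away, did not share the pattern, with 163, 160 and 171 TPM in the adults, against 162, 137 and 164 TPM in the nestlings. Whether the 2 single-exon neighbours share reads was not tested.

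The second gene without a symbol, NheS0688g001 (234 bp in 2 exons), stood at 25.6, 70.7 and 102 TPM in adults 4, 5 and 6, against 6.80 and 0.29 TPM in nestlings 1 and 2, and was listed at 0 in nestling 3. The lowest adult was above the highest nestling, but both stages were widely spread. A log2 difference of 6.47 ± 1.48 (SE) was fitted with an adjusted p of 0.548, and its size depends on the pseudocount because of the nestlings near 0.

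The 50 genes with the largest differences among those higher in every adult were weakly expressed and short, and none had a symbol. Their median level was 14.4 TPM in adults and 1.60 TPM in nestlings, and their median over all birds, 8.27 TPM, compares with 26.3 TPM over all genes of at least 1 TPM. The median coding length was 595.5 bp, and 21 of the 50 (42.0%) had 500 bp or less, against 18.5% of all genes. A single exon was found in 8 of them (16.0%), against 6.53% of all. They were listed at 0 in nestling 1 for 6 genes, in nestling 2 for 19 and in nestling 3 for 5, and 1 gene was at 0 in all nestlings. Nestling 2 was the lowest bird in 23 of the 50. Their median log2 difference was 3.58 on TPM and 3.20 on rescaled TPM without that bird. The 50 were picked for large differences with every nestling below every adult. A large difference without nestling 2 therefore follows in part from the choice. The largest just outside the set was 3.09 and the smallest inside it 3.11.

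Several of the 50 lay side by side. On 5 scaffolds (51, 408, 471, 497 and 635), 2 neighbouring genes both belonged to the set, 10 genes in all. On scaffold 497 a further member, and on scaffold 835 another pair, lay with a single gene between. The pair on scaffold 635, at 30682 to 31014 and at 33485 to 33817, had the same coding length of 333 bp in a single exon. Its first gene had 32.8, 49.7 and 45.8 TPM in adults 4, 5 and 6, against 5.82, 1.09 and 2.66 TPM in nestlings 1, 2 and 3. Its second had 32.0, 55.0 and 36.4 TPM in the adults, against 5.54, 0.46 and 1.94 TPM in the nestlings. Both were high in the adults and low in the nestlings. Whether they share reads was not tested, since no sequence was compared, and they are not counted as separate evidence. Tested neighbours outside the set numbered 72, where a gene lying between 2 members was counted for each of them. Their median log2 difference was 0.80, against 0.45 over all genes tested.

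**Figure D3:**
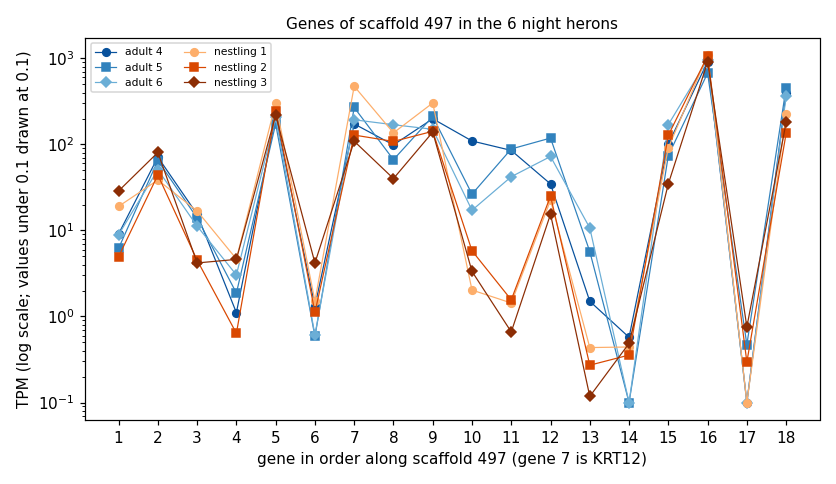
TPM (y axis, log scale) of the 18 genes of scaffold 497 in their order along the scaffold (x axis) in adults 4 to 6 (blue) and nestlings 1 to 3 (orange and brown). On TPM, adults lie above nestlings at genes 10, 11, 12, 13 and 18 (gene 12 overlaps after rescaling) and below them at gene 5. Gene 7, KRT12, is highest in nestling 1 at 474 TPM.

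Scaffold 497 held 3 of the 50 genes. On TPM, genes 10 to 13 of its 18 genes were higher in every adult than in every nestling, over 224602 to 287161, and on rescaled TPM the stages of gene 12 overlapped. The 11th gene (2268 bp in 9 exons) stood at 85.2, 88.5 and 42.1 TPM in adults 4, 5 and 6, against 1.43, 1.56 and 0.66 TPM in nestlings 1, 2 and 3, a log2 difference of 5.78 with an adjusted p of 0.106 by limma. The 10th gene had 110, 26.4 and 17.2 TPM in the adults, against 2.03, 5.80 and 3.34 TPM in the nestlings. The 12th gene was less far apart, with 34.7, 118 and 72.4 TPM in the adults, against 22.5, 25.1 and 15.4 TPM in the nestlings. KRT12, a keratin known from the corneal epithelium, is the 7th gene of the scaffold, and its stages overlapped, with 173, 269 and 193 TPM in the adults, against 474, 128 and 109 TPM in the nestlings. Genes 8 and 9, between KRT12 and these genes, had log2 differences of 0.30 and 0.03. Elsewhere on the scaffold, gene 18 was higher and gene 5 was lower in every adult on both scales. Gene 5 had 211, 174 and 207 TPM in the adults, against 302, 245 and 220 TPM in the nestlings.

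NheS2477g001 and NheS0103g031 had the lowest differences among the genes without a symbol that were lower in every adult. NheS2477g001 (264 bp in 2 exons) was listed at 0 in all 3 adults and stood at 8.02, 17.5 and 99.9 TPM in nestlings 1, 2 and 3, so no fold is given. NheS0103g031 (1341 bp in 6 exons) stood at 0.82, 2.86 and 1.30 TPM in adults 4, 5 and 6, against 34.7, 43.2 and 102 TPM in nestlings 1, 2 and 3. Each nestling was thus far above each adult for this gene, with a log2 difference of -5.10 ± 0.68 (SE), an adjusted p of 0.224 by limma and -5.37 on rescaled TPM without nestling 2. The nearest gene before it, 13347 bp away, had stages that overlapped and a log2 difference of 0.06. Neither gene has a symbol.

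The 50 lowest differences of this kind had a median of -1.98 on TPM and -2.08 on rescaled TPM without nestling 2. These genes were picked for large differences with every nestling above every adult. A large difference without nestling 2 therefore follows in part from the choice here too. Nestling 2 was the highest bird in 16 of the 50. Their median level was 1.70 TPM in adults and 9.55 TPM in nestlings. None had a single exon, the median number of exons was 4.5, and 16 of the 50 (32.0%) had a coding length of 500 bp or less. In 3 genes all adults were listed at 0. Some were abundant in nestlings. A gene of 1227 bp on scaffold 165 had 23.4, 200 and 67.3 TPM in adults 4, 5 and 6, against 529, 871 and 345 TPM in nestlings 1, 2 and 3. A gene of 963 bp on scaffold 72 had 35.6, 82.8 and 33.6 TPM in the adults, against 601, 109 and 407 TPM in the nestlings. Both were chosen after their values were seen, from the 3 genes of the set with the highest mean in nestlings. Only 1 pair was adjacent, on scaffold 351, and the 83 tested neighbours outside the set had a median log2 difference of 0.29.

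Leaving out nestling 1 was the only removal of a single bird after which genes passed the threshold. These were 3 genes, a gene of 462 bp on scaffold 318 and a pair of genes of 177 and 198 bp on scaffold 652. The gene on scaffold 318 had 19.4, 26.3 and 11.3 TPM in adults 4, 5 and 6, against 3.53, 2321 and 5994 TPM in nestlings 1, 2 and 3. The longer gene on scaffold 652 was listed at 0 in the 3 adults and in nestling 1, and stood at 904 and 1859 TPM in nestlings 2 and 3. Its shorter neighbour had 43.9, 29.7 and 19.4 TPM in the adults, against 3.16, 2787 and 5918 TPM in the nestlings. Nestlings 2 and 3 thus shared transcripts at levels of 904 to 5994 TPM, for which nestling 1 was at 0 or below each adult. Without nestling 1 their adjusted p by limma was 0.0407, 0.0117 and 0.0407, and with all 6 birds none passed.

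Among the genes with a symbol, 36 of 257 tested (14.01%) were higher and 7 (2.72%) lower in every adult on both scales, against 9.29% and 3.74% of all genes tested. None was called, and the lowest adjusted p among them was 0.573. At an unadjusted p under 0.05 by limma there were 19 of the 257 with adults higher and 1 with adults lower. Over all genes tested these shares were 6.02% and 1.07%. Of the 34 at 1 TPM or more that were higher in adults, 33 had nestling 2 as the lowest bird. Of the 7 that were lower, 4 had it as the highest. A difference of at least 1 on the log2 scale was held by 30 of the 34 with all birds and by 12 on rescaled TPM without nestling 2.

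**Figure D4:**
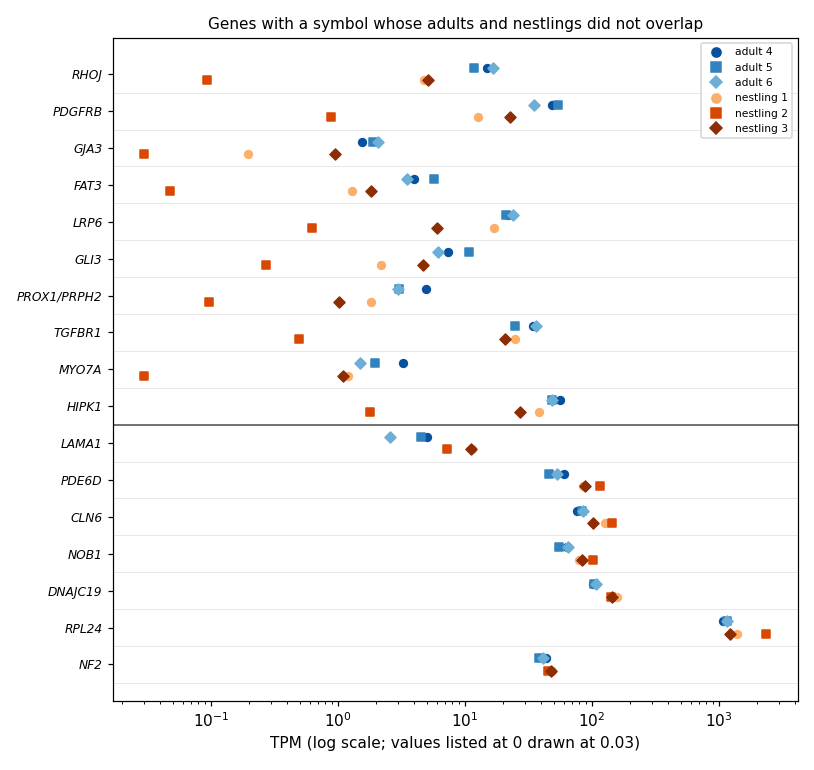
TPM (x axis, log scale) of the 10 genes with a symbol that had the largest log2 differences among those higher in every adult (above the line) and of the 7 that were lower in every adult (below it), with adults 4 to 6 in blue and nestlings 1 to 3 in orange and brown. Nestling 2 is far to the left of all other birds in the upper genes, at 0.09 TPM for RHOJ and 0.88 TPM for PDGFRB.

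RHOJ and PDGFRB had the 2 largest differences among the symbol genes higher in every adult. RHOJ, a small GTPase of vessel and cell shape, stood at 14.8, 11.8 and 16.6 TPM in adults 4, 5 and 6, against 4.82, 0.09 and 5.13 TPM in nestlings 1, 2 and 3. PDGFRB, the PDGF receptor of pericytes and fibroblasts, stood at 48.2, 54.6 and 34.8 TPM in the adults, against 12.8, 0.88 and 22.5 TPM in the nestlings. For both genes the adults lay above nestlings 1 and 3, and nestling 2 lay far below all other birds. The log2 difference was 3.07 ± 1.27 (SE) for RHOJ and 2.78 ± 1.10 for PDGFRB, each with an adjusted p of 0.573 by limma, and 1.38 and 1.28 on rescaled TPM without nestling 2.

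GLI3, a transcription factor of the hedgehog pathway, had 7.38, 10.7 and 6.12 TPM in adults 4, 5 and 6, against 2.18, 0.27 and 4.70 TPM in nestlings 1, 2 and 3. LRP6, a co-receptor for Wnt ligands, had 21.7, 21.2 and 23.9 TPM in the adults, against 17.1, 0.63 and 6.02 TPM in the nestlings. The adults were close to one another for LRP6, and nestling 1 lay nearest to them. TGFBR1, a receptor for TGF-beta, had 34.4, 25.0 and 36.1 TPM in the adults, against 24.8, 0.50 and 20.7 TPM in the nestlings, so that adult 5 and nestling 1 differed by only a small part of the spread between adults. HIPK1, a nuclear kinase, had 56.1, 48.8 and 48.3 TPM in the adults, against 38.3, 1.80 and 27.4 TPM in the nestlings. The log2 differences were 2.32 (GLI3), 2.39 (LRP6), 2.22 (TGFBR1) and 2.02 (HIPK1) with all birds, and on rescaled TPM without nestling 2 they were 1.15, 1.00, 0.35 and 0.53. The difference for TGFBR1 and HIPK1 was therefore carried mainly by that bird.

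The other genes of the 10 were FAT3, GJA3, MYO7A and an identifier with a pair of symbols, and GJA3 and FAT3 had the largest differences after RHOJ and PDGFRB. FAT3, an atypical cadherin, had 4.00, 5.71 and 3.51 TPM in adults 4, 5 and 6, against 1.30, 0.05 and 1.82 TPM in nestlings 1, 2 and 3. GJA3, a gap junction protein known from the lens, had 1.56, 1.88 and 2.06 TPM in the adults, against 0.20 and 0.95 TPM in nestlings 1 and 3, and was listed at 0 in nestling 2. MYO7A, an unconventional myosin of hair cells and photoreceptors, had 3.24, 1.96 and 1.48 TPM in the adults, against 1.19 and 1.11 TPM in nestlings 1 and 3, and was likewise listed at 0 in nestling 2. All 3 genes were weak in every bird. An identifier paired with both PROX1, a developmental transcription factor, and PRPH2, a photoreceptor disc protein, had 4.91, 3.01 and 2.98 TPM in the adults, against 1.83, 0.10 and 1.03 TPM in the nestlings. Which of the 2 genes it stands for is not known, and nestling 1 was again the nestling closest to the adults. On rescaled TPM without nestling 2 the log2 differences of FAT3, GJA3, MYO7A and this gene were 1.31, 1.67, 0.71 and 1.18. The smallest difference inside the 10 was 2.02 (HIPK1) and the largest outside 1.90 (ALDH1A3).

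Other symbol genes kept most of their difference without nestling 2, and these were chosen after their values were seen. EPHB1, an ephrin receptor of axon guidance, had 27.6, 38.6 and 30.1 TPM in adults 4, 5 and 6, against 11.7, 6.06 and 12.1 TPM in nestlings 1, 2 and 3. Its log2 difference was 1.73 on TPM and 1.28 without nestling 2 on rescaled TPM. MERTK, a receptor for the uptake of dead cells, had 54.3, 81.0 and 48.4 TPM in the adults, against 19.4, 17.5 and 36.0 TPM in the nestlings. Nestling 3, not nestling 2, was the closest to the adults for this gene, and the log2 difference was 1.37 on TPM and 1.05 without nestling 2. RET, a receptor for the GDNF family, was apart on TPM but not on rescaled TPM, with 16.4, 22.9 and 6.32 TPM in the adults, against 3.70, 1.13 and 5.61 TPM in the nestlings.

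Genes lower in every adult included RPL24, NOB1 and DNAJC19, which serve ribosomes and mitochondria. RPL24, a protein of the large ribosomal subunit, stood at 1075, 1156 and 1171 TPM in adults 4, 5 and 6, against 1396, 2372 and 1231 TPM in nestlings 1, 2 and 3. Its nestlings were widely spread, with nestling 2 the highest, and nestling 3 lay close to the adults. NOB1, which matures the small ribosomal subunit, had 63.6, 54.7 and 64.7 TPM in the adults, against 79.3, 102 and 83.6 TPM in the nestlings. DNAJC19, of the mitochondrial import motor, had 102, 104 and 108 TPM in the adults, against 157, 142 and 145 TPM in the nestlings. The adults of DNAJC19 stayed within a few TPM of one another. The log2 differences were -0.50 ± 0.30 (SE) for RPL24, -0.53 ± 0.27 for NOB1 and -0.50 ± 0.23 for DNAJC19, with an adjusted p of 0.573 each by limma. Without nestling 2, on rescaled TPM, they were -0.33, -0.54 and -0.65.

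PDE6D, which carries prenylated proteins to cilia, had 60.9, 45.7 and 53.1 TPM in adults 4, 5 and 6, against 84.6, 115 and 88.9 TPM in nestlings 1, 2 and 3. It was the only gene with a symbol at an unadjusted p under 0.05 with adults lower, with a log2 difference of -0.85 ± 0.28 (SE) and an adjusted p of 0.573. CLN6, of the endoplasmic reticulum and lysosomal storage disease, had 76.3, 83.9 and 84.7 TPM in the adults, against 126, 143 and 102 TPM in the nestlings. LAMA1, a laminin chain of basement membranes with a gene model of 819 bp in 5 exons, had the largest difference of the 7. It had 5.00, 4.52 and 2.58 TPM in the adults, against 11.5, 7.24 and 11.2 TPM in the nestlings. Its log2 difference was -1.31 ± 0.58 (SE), and -1.64 on rescaled TPM without nestling 2. NF2, which encodes merlin, had the smallest, with 43.8, 38.2 and 41.1 TPM in the adults, against 48.6, 45.6 and 47.8 TPM in the nestlings, and an adjusted p of 0.722. On rescaled TPM without nestling 2, the log2 differences of PDE6D, CLN6 and NF2 were -0.84, -0.60 and -0.36. The coding lengths of the models of these 7 genes ran between 345 and 1743 bp with a median of 735 bp. The median was 1488 bp for the 34 genes higher in adults. Whether the models hold whole genes was not tested.

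The 12 lists of symbol genes were read against the general shift, which was 0.45 on TPM and 0.03 on rescaled TPM. All genes with a symbol, from which the lists were drawn, had higher medians of 0.62 on TPM and 0.19 rescaled. Without nestling 2 their median was 0.04 on rescaled TPM. No member of any list was called. Counts of members higher or lower in every adult stand beside 9.29% and 3.74% of all genes tested. Among the genes with a symbol these shares were 14.01% and 2.72%. Counts of positive differences stand beside 9431 of all 13042 genes tested on TPM and 6676 on rescaled TPM. Of the 257 tested genes with a symbol, 206 had a positive difference on TPM and 164 on rescaled TPM. The growth factor receptor and hypoxia list had the highest median on TPM. All of its 13 genes had a positive difference, 3 (PDGFRB, EPHB1 and MERTK) were higher in every adult on both scales and none was lower, and the median was 1.37, or 0.92 rescaled. Without nestling 2 its median was 0.27 on rescaled TPM. The member with the highest level was EPAS1, a hypoxia-inducible transcription factor, whose stages overlapped, with 260, 251 and 272 TPM in adults 4, 5 and 6, against 298, 73.6 and 198 TPM in nestlings 1, 2 and 3. HIF1A, its relative, had 82.8, 48.6 and 82.9 TPM in the adults, against 54.9, 5.56 and 50.8 TPM in the nestlings.

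**Figure D5:**
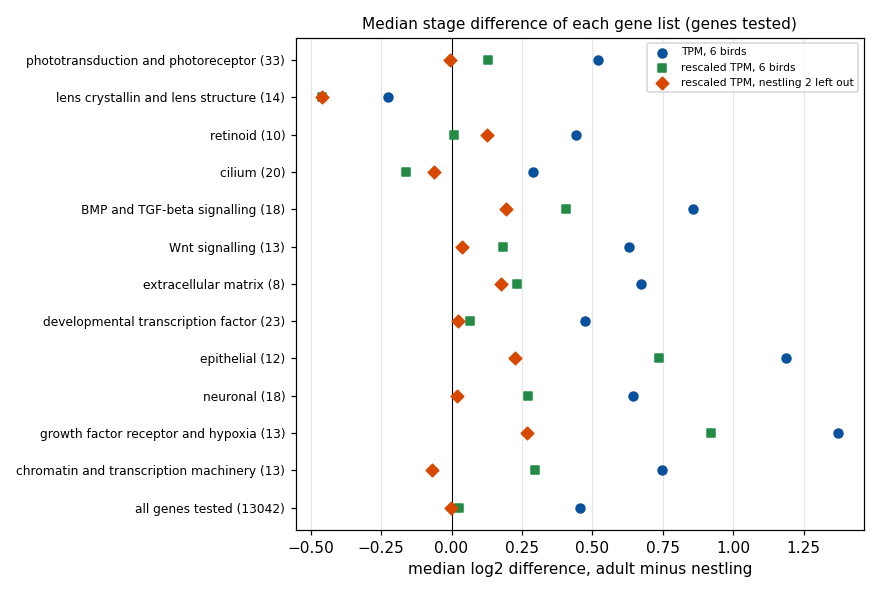
Median log2 difference, adult minus nestling (x axis), of the tested genes of each of the 12 lists and of all 13042 genes (rows, number of genes tested in brackets), on TPM (circles), on rescaled TPM (squares) and on rescaled TPM without nestling 2 (diamonds). Medians run between -0.22 and 1.37 on TPM and between -0.46 and 0.27 without nestling 2.

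Among the epithelial genes, 11 of 12 had a positive difference on TPM (median 1.19), 9 on rescaled TPM (median 0.74), and the median was 0.22 without nestling 2. Of these genes, 2 were higher in every adult on both scales and none was lower. AQP1, a water channel of vessels and secretory epithelia, was the most abundant, with 1633, 2649 and 2095 TPM in adults 4, 5 and 6, against 1365, 343 and 845 TPM in nestlings 1, 2 and 3. Its log2 difference was 1.51 ± 0.50 (SE), with an adjusted p of 0.573, and 0.83 without nestling 2 on rescaled TPM. The other was PVRL3, a nectin of adherens junctions, with 49.1, 40.2 and 58.3 TPM in the adults, against 35.1, 8.86 and 25.2 TPM in the nestlings. The water channel of glands, AQP5, had overlapping stages, with 447, 687 and 563 TPM in the adults, against 703, 504 and 279 TPM in the nestlings. KLF4, a transcription factor of barrier epithelia, had 136, 218 and 118 TPM in the adults, against 95.7, 63.7 and 49.9 TPM in the nestlings, and overlapped only after rescaling.

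The BMP and TGF-beta list had a median of 0.86 on TPM, 0.40 rescaled and 0.19 without nestling 2, with 3 of 18 genes (SKI, SMAD1 and TGFBR1) higher in every adult on both scales and none lower. Its most abundant member, the repressor TGIF1, had 320, 214 and 284 TPM in adults 4, 5 and 6, against 201, 185 and 116 TPM in nestlings 1, 2 and 3. Ligands of the family had overlapping stages. TGFB2 had 51.1, 54.8 and 38.5 TPM in the adults, against 25.7, 14.4 and 126 TPM in the nestlings, and BMP7 had 61.7, 40.2 and 57.4 TPM in the adults, against 41.4, 18.2 and 53.7 TPM in the nestlings. The intracellular mediator SMAD1 was apart, with 41.7, 46.0 and 49.7 TPM in the adults, against 33.8, 10.4 and 29.7 TPM in the nestlings.

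The Wnt list had a median of 0.63 on TPM, 0.18 rescaled and 0.04 without nestling 2. Of its 13 genes, the receptors LRP6 and FZD4 were higher in every adult on both scales and none was lower. FZD4, a frizzled receptor, had 116, 102 and 89.0 TPM in adults 4, 5 and 6, against 76.7, 13.8 and 68.1 TPM in nestlings 1, 2 and 3. CTNNB1 (beta-catenin), the most abundant member, had 520, 554 and 510 TPM in the adults, against 524, 183 and 490 TPM in the nestlings, and only nestling 2 stood away from the other birds. The ligands WNT5A and WNT5B had overlapping stages.

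In the extracellular matrix list, COL1A1, a chain of type I collagen, made up most of the summed level in every bird and differed widely between birds. It had 4600, 12393 and 4004 TPM in adults 4, 5 and 6, against 847, 3535 and 21869 TPM in nestlings 1, 2 and 3. Nestlings 1 and 3 were thus the lowest and the highest of all birds for this collagen of connective tissue and bone, and its stages overlapped. LUM, a proteoglycan of collagen fibres, had 100, 479 and 251 TPM in the adults, against 94.6, 192 and 358 TPM in the nestlings. The list's median was 0.67 on TPM, 0.23 rescaled and 0.18 without nestling 2, and 1 of its 8 genes, LAMA1, was lower in every adult on both scales while none was higher. How much connective tissue each sample held was not tested.

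Of the 20 cilium genes, which serve the sensory cilia of olfactory neurons among others, none was higher or lower in every adult on both scales. Over all genes tested these shares were 9.29% and 3.74%, so a list of 20 can hold none without differing from other genes. The median of the cilium list was 0.29 on TPM and changed sign to -0.16 on rescaled TPM and -0.06 without nestling 2. TMEM231, a protein of the ciliary transition zone and the most abundant member, had 79.9, 72.7 and 72.4 TPM in adults 4, 5 and 6, against 115, 90.3 and 61.8 TPM in nestlings 1, 2 and 3. IFT88, of the transport along cilia, had 75.0, 49.7 and 75.9 TPM in the adults, against 96.3, 88.0 and 31.8 TPM in the nestlings. Nestling 1 was the highest bird for both.

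Genes of the retina and lens were mostly weak, with a median level of 0.55 TPM over the retinal list and 1.16 TPM over the lens list. Of the 36 phototransduction and photoreceptor genes, 16 reached a mean of 1 TPM and 33 were tested, of which 4 (CNGA3, GRK7, RGS9 and SLC24A1) were higher and 1 (PDE6D) was lower in every adult on both scales. The list's median was 0.52 on TPM, 0.13 rescaled and -0.0044 without nestling 2. RGS9, which speeds the shut-off of G proteins, had 13.2, 12.2 and 16.1 TPM in adults 4, 5 and 6, against 9.97, 1.85 and 4.59 TPM in nestlings 1, 2 and 3. CNGA3, the channel subunit of cones, had 2.70, 4.00 and 4.80 TPM in the adults, against 1.16, 0.65 and 2.19 TPM in the nestlings. GNB1, a G protein subunit found in most cells and the most abundant of the list, had 299, 302 and 429 TPM in the adults, against 323, 116 and 358 TPM in the nestlings.

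The lens list was the only one with a negative median on TPM, -0.22 over 14 genes, and it was -0.46 both on rescaled TPM and without nestling 2. Of its genes 5 had a positive difference on TPM and 3 on rescaled TPM, GJA3 was higher in every adult on both scales and none was lower. CRYAB, a small heat shock protein also made outside the lens, had 5.69, 12.6 and 11.9 TPM in adults 4, 5 and 6, against 25.7, 9.25 and 22.8 TPM in nestlings 1, 2 and 3. The most abundant member, TDRD7, had 16.3, 19.7 and 12.7 TPM in the adults, against 33.5, 10.7 and 13.999 TPM in the nestlings. For both genes nestling 2 was the lowest nestling and the stages overlapped.

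The retinoid list had a median of 0.44 on TPM, 0.01 rescaled and 0.13 without nestling 2, with 1 of 10 genes higher in every adult on both scales. This was ALDH1A3, an enzyme that makes retinoic acid, with 236, 231 and 233 TPM in adults 4, 5 and 6, against 207, 14.9 and 78.2 TPM in nestlings 1, 2 and 3. The adults lay within a narrow band and the nestlings over a wide one, and the log2 difference was 1.90 ± 0.84 (SE), or 0.75 without nestling 2 on rescaled TPM. Its relative ALDH1A1 had 26.7, 58.3 and 34.9 TPM in the adults, against 201, 18.6 and 12.4 TPM in the nestlings, with nestling 1 far above all other birds.

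Developmental transcription factors lay near the general shift, and neuronal genes and chromatin genes lay above it with all birds. In this order, the medians were 0.47, 0.64 and 0.75 on TPM and 0.07, 0.27 and 0.30 on rescaled TPM. All genes with a symbol also lay above the general shift, with 0.62 on TPM and 0.19 rescaled. On rescaled TPM without nestling 2 the medians of the lists were 0.02, 0.02 and -0.07. In each list 2 genes were higher in every adult on both scales and none was lower. Among the neuronal genes, THY1, a surface protein of neurons and fibroblasts, was the most abundant, with 87.6, 83.8 and 84.9 TPM in adults 4, 5 and 6, against 52.6, 55.2 and 116 TPM in nestlings 1, 2 and 3. TH, the first enzyme of dopamine synthesis, was apart at very low levels, with 0.35, 0.11 and 1.02 TPM in the adults, against 0.05 and 0.03 TPM in nestlings 2 and 3, and was listed at 0 in nestling 1. PAX6, a regulator of eye and olfactory development, had 5.50, 4.01 and 5.35 TPM in the adults, against 5.28, 2.40 and 18.5 TPM in the nestlings. HES5, a Notch target, had 8.21, 3.42 and 6.02 TPM in the adults, against 5.76, 16.1 and 25.8 TPM in the nestlings. The highest value of both was in nestling 3. HDAC2, a histone deacetylase and the most abundant chromatin gene, had 210, 182 and 186 TPM in the adults, against 219, 107 and 168 TPM in the nestlings.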

How the data were processed

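OE libraries of 6 night herons (TRIzol, NEBNext Ultra, 150 bp read pairs, Illumina HiSeq) were analysed. After trimming (Trimmomatic), the authors aligned the reads to their own assembly by HISAT2 and quantified each bird with StringTie 2.1.4 on the annotated models. The version of HISAT2 was not given in the sources used here. Deposited TPM sum to 1000000 per bird. The deposited FPKM and the deposited coverage, a signal per base, come from the same runs. FPKM gave no result, and coverage gave the exon ratio and the read equivalents. Read counts were not used here. limma's voom on the read equivalents was run as an alternative, and no other count test was run. Of the coding lengths 100% are multiples of 3, so the models hold no UTRs. Levels and lengths refer to the models, and whether a model holds the whole gene was not tested. The models of LAMA1, MYO7A, COL1A1 and GNB1, for example, hold 819, 564, 870 and 249 bp. Little egret files were not used.

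Genes averaging 0.02 TPM or more over the birds were tested with limma 3.58.1 in R 4.3.3 (lmFit, eBayes with a trend, two-sided) on log2(TPM + 0.1), with Benjamini-Hochberg adjustment over 13042 genes and a threshold of 0.05. Differences on this scale understate changes of weak genes. The fit was tested on simulated data with the same spread in both stages. Since these nestlings spread more than the adults, that check does not cover this feature of the data. Rescaling divided each bird by its median ratio, 1.13 to 1.23 in adults and 0.551 to 1.18 in nestlings, over the 11643 genes above 0 in every bird. Of 8893 genes averaging 10 TPM or more, 38 were at 0 in some bird, 25 of them in nestling 2. Whether such a 0 is a failed estimate or a true absence was not tested.

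Named genes averaged 1 TPM or more, with stages apart on both scales and no entry in the OR table. They were the 10 largest and 10 lowest differences with a symbol (7 existed), the 2 largest and 2 lowest without one, and the most abundant member of each list. Others are given as list members or as chosen after their values were seen. Members and lists were chosen with earlier results of these data known. Tables and plots used Python 3.11.15, numpy 2.4.6, pandas 2.3.3 and matplotlib 3.10.9.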

Additional observations from a re-analysis of the deposited data

How the results depend on the processing

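No paired analysis was possible because adults 4 to 6 and nestlings 1 to 3 share no number. With 3 birds a stage, even the largest difference among genes higher in every adult, 6.62 for NheS0471g031, did not pass the threshold, so a gene that was not called is not shown to be unchanged. Stage and location cannot be told apart. Besides the removal of each bird, 8 other settings were tried, and a further one, nestling 2 left out with the other 5 rescaled, was chosen after seeing the data. The number called was 0 to 3 with a bird left out and 0 otherwise. Genes at an unadjusted p under 0.05 with adults higher numbered 497 after rescaling and 344 to 2241 with a bird left out. With adults lower they numbered 450 after rescaling, 228 without the 50 most abundant genes, 234 with voom, 575 without nestling 2 and rescaled, and 71 to 388 with a bird left out. Genes without overlap numbered 1269 (adults higher) and 1354 (lower) after rescaling, 1886 (lower) without nestling 2 and rescaled, and 2371 to 4913 (higher) and 696 to 1177 (lower) with a bird left out, where fewer birds have to be apart by construction. The cause of the other moves was not tested. The median log2 difference over all genes was 0.12 to 0.61 with a bird left out.

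Of 494 values of 33 named genes, 11 changed sign. After rescaling these were THY1 (-0.16) and HDAC2 (-0.17). Without nestling 2 and rescaled they were GNB1 (-0.13), CTNNB1 (-0.065), EPAS1 (-0.016) and HDAC2 (-0.12). With a bird left out, GNB1 ranged over -0.0063 to 0.81, TDRD7 over -0.44 to 0.38, TMEM231 over -0.44 to 0.0035 and COL1A1 over -0.52 to 1.82. No named gene with stages apart changed sign. This was fixed by the choice of these genes for rescaling and for the removal of any 1 bird, so it does not show stability.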
